A study of Mus musculus with 12 samples.

Results

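The liver makes most of the complement and clotting proteins of plasma, and 39 of their genes were followed here by name: 19 of complement and 20 of coagulation and fibrinolysis. They were chosen from pathway membership, across the lectin, classical, alternative and terminal arms of complement and across the clotting factors, fibrinogen, the inhibitors and the fibrinolytic genes, with no measured value in the rule, though with earlier results of these data known. All 39 were found among the 56205 genes of the count table, and all 39 passed the low-count filter that left 13416 genes for testing.

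Poly(A) RNA from whole livers of 12 ob/ob mice (B6.Cg-Lepob/J, which lack leptin and become obese and steatotic) was sequenced, with 6 mice in each group. The OBOB_FLO group (FLO below) was kept on standard chow. The OBOB_Fibrotic group (fibrotic below) had the same chow with DL-ethionine, an ethyl analogue of methionine. Mice were 8 to 10 weeks old at the start, and the series describes them as males only. The sources differ on the exposure. The series design and 1 label give 0.165% ethionine, which the design places in drinking water for 2 weeks, another label gives an injection of 0.15%, and the methods give 0.15% in drinking water for 1 week. The name of the fibrotic group is the submitters' and was not tested against histology. The study characterises ethionine-treated ob/ob mice by microvesicular steatosis with inflammation, and reports no difference in their Col1a1 expression. Both groups carry the leptin mutation, so neither stands for a lean liver.

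Library totals ranged from 17815568 to 24814263 counts. Hepatocyte markers (7 found of 8, Tf unmatched) summed to between 76021 and 91813 CPM (counts scaled to the normalised library size) in FLO and between 58953 and 97412 CPM in fibrotic libraries, so the groups overlapped, and 2 of the 7 were called higher and 1 lower by the rule given below. Alb alone made up most of these sums, with medians of 65942 CPM in FLO and 50508 CPM in fibrotic libraries, and was not called. Kupffer cell markers (6 of 8 called higher) summed to 185 to 225 CPM in FLO and 242 to 504 CPM in fibrotic libraries, and cholangiocyte markers (3 of 5 called higher) to 47.0 to 87.9 and 80.6 to 273 CPM. Endothelial markers (1 of 8 called lower) summed to 226 to 256 CPM in FLO and 165 to 208 CPM in fibrotic libraries. Stellate cell markers (1 of 7 called higher) summed to 200 to 272 CPM in FLO and 222 to 332 CPM in fibrotic libraries. The neutrophil, platelet and lymphocyte sums each stayed under 11 CPM in every library, with Ly6g, Cxcr2, Retnlg, Gp9 and Ms4a1 at 0 in at least 1 library. Platelet sums did not overlap (4.70 to 5.99 CPM in FLO, 6.47 to 10.9 CPM in fibrotic). Of 2 tested platelet markers Itga2b was called higher, and of 2 tested neutrophil markers Csf3r. The 1 tested lymphocyte marker was not called. In whole tissue, fewer cells of a type and less RNA per cell cannot be told apart, and the part of these cell markers in the results was not tested.

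A pair of libraries stood apart. The library labelled FLO replicate 3 held 3773 counts of Xist, which female cells express, against 0 to 4 in the other 11 libraries, and 4 counts of the Y-linked Ddx3y against 556 to 977, which goes against the stated sex. Fibrotic replicate 4 was the lowest of its group for 33 of the 39 members (84.6%) and for 29.7% of all tested genes. Counts of called members are therefore also given without each of these.

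Complement is a cascade of plasma proteases in which recognition of a surface, by antibody and C1 or by mannose-binding lectins, leads to cleavage of C3 and then to assembly of C5b to C9 as a pore in the target membrane. Coagulation is a second protease cascade, ending in thrombin, which turns fibrinogen into fibrin, while plasmin dissolves fibrin again. Hepatocytes secrete nearly all of these zymogens and their inhibitors, several need vitamin K-dependent carboxylation in the liver, and a number of them are acute phase proteins.

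Most of the members were lower in the fibrotic group. A gene was called where the edgeR adjusted p was at most 0.01 and the log2 fold change exceeded 0.5 in size. By that rule 20 of the 39 members (51.3%) were called, 19 of them lower and 1 higher. Among all tested genes 29.9% were called, 14.0% lower and 15.9% higher. The median log2 fold change (fibrotic minus FLO) of the members was -0.56, against 0.03 over all tested genes, and 34 of the 39 had a negative value (87.2%, against 48.3% of all tested genes). The 6 fibrotic libraries lay below all 6 FLO libraries for 22 members and above them for 1, which compares with 15.1% and 15.3% of all tested genes. At the adjusted p alone, 23 members passed, against 38.9% of tested genes.

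**Figure D1:**
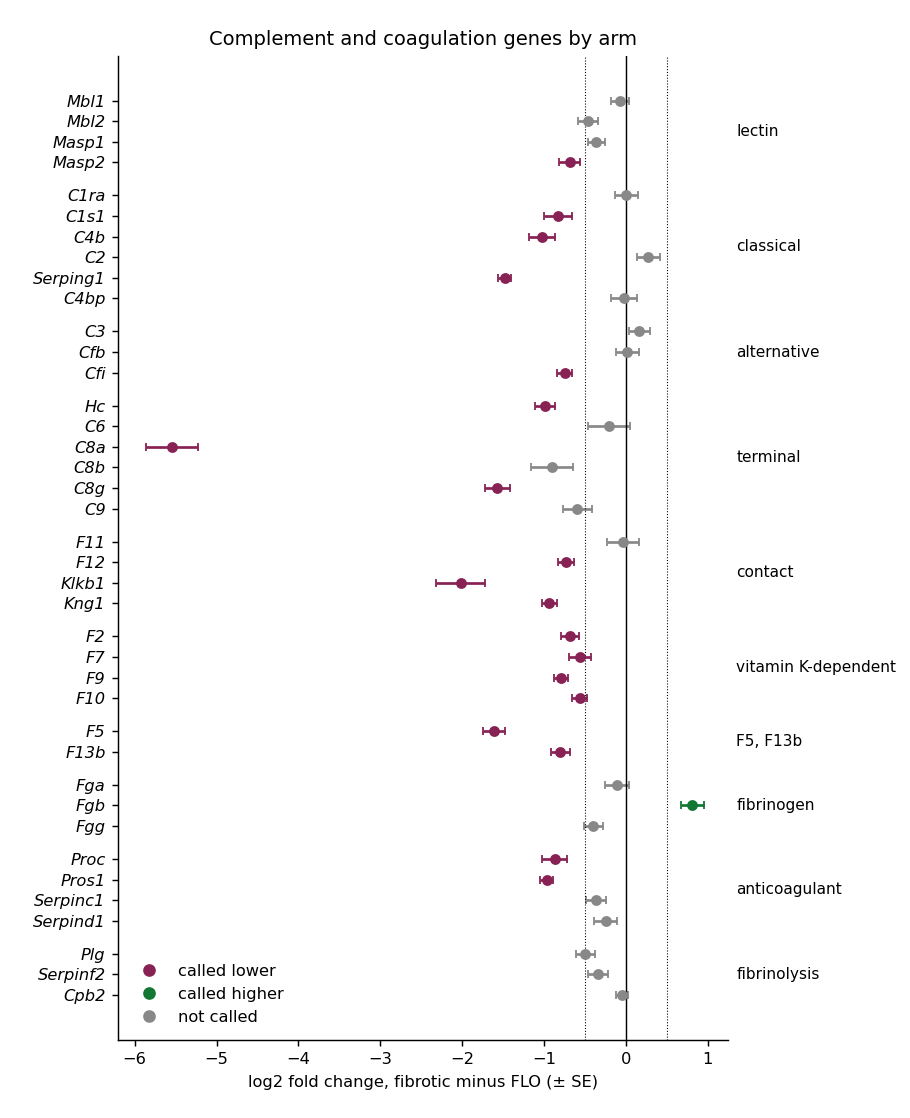
Log2 fold change of each of the 39 members (fibrotic minus FLO, n = 6 in each group, bars ± SE), grouped by arm of the pathway, with called genes in colour. C8a stands at -5.55, far from all other members, and Fgb at 0.82 is the only member called higher.

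Without FLO replicate 3 there were 19 members called lower and 1 higher, and without fibrotic replicate 4 there were 17 and 1. The counts did depend on the reference used for scaling. Libraries were also scaled to 16 genes of other hepatocyte plasma proteins (plasma-protein scaling below). This moved the median of all tested genes up by 0.49 on the log2 scale, to 0.52. In that scaling 6462 of the 13416 tested genes were called, and 7 members were called lower and 3 higher. Counts and medians given below for this scaling are to be read beside those of all tested genes. C4b, Serping1, Hc, C8a, C8g, Klkb1 and F5 were called lower in both scalings, Fgb was called higher in both, and C2 and C3 were called higher in that scaling alone. The members together took up 2.55 to 2.75% of all raw counts in FLO libraries (median 2.63%) and 2.29 to 2.72% in fibrotic libraries (median 2.58%). These shares leave out the normalisation of library size behind the CPM values. The normalisation factor was higher in every fibrotic library than in every FLO library. On the CPM scale the fibrotic shares therefore lie lower beside the FLO shares than given here, and the overlap in raw shares does not carry over to that scale. C3 and Fgb, neither of them called lower, had the highest CPM of the members in fibrotic libraries.

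The terminal arm held the largest change. C8 is made of an alpha, a beta and a gamma chain from 3 genes, and binds to C5b, C6 and C7 before C9 polymerises. C8a, the alpha chain, was measured in FLO libraries at 44.7 CPM (lowest), 86.6 (median) and 136 (highest), and in fibrotic libraries at 0.889, 1.65 and 3.22 CPM. In raw counts these were 1044 to 2294 in FLO and 19 to 64 in fibrotic libraries. Every fibrotic library was thus more than an order of magnitude below every FLO library, and C8a fell by 5.55 on the log2 scale (SE 0.32, adjusted p = 2.82e-08). Leaving out any 1 library gave -5.77 to -5.38. C8g, the gamma chain, a lipocalin, had 294, 344 and 354 CPM in FLO and 63.5, 118 and 148 CPM in fibrotic libraries. It fell by 1.57 (SE 0.15, adjusted p = 8.64e-07) with no overlap. It overlaps Fbxw5 on the opposite strand, and whether counting used strand is not stated. C8b, the beta chain, had 26.1, 30.3 and 61.7 CPM in FLO and 8.80, 19.8 and 25.4 CPM in fibrotic libraries. Its groups did not overlap, but its log2 fold change of -0.90 (SE 0.26) had an adjusted p of 0.0105 and was not called.

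Hc, which encodes complement C5, the source of the anaphylatoxin C5a and of the start of the pore, had 350, 430 and 464 CPM in FLO and 152, 214 and 252 CPM in fibrotic libraries. It fell by 0.99 (SE 0.12, adjusted p = 7.44e-06), and the groups did not overlap. C9, the polymerising pore subunit, ranged from 194 to 349 CPM in FLO and from 97.2 to 226 CPM in fibrotic libraries. Its groups overlapped, and it was not called (-0.59, SE 0.18, adjusted p = 0.0123). C6, which binds C5b first, was at medians of 19.0 and 19.1 CPM and had a log2 fold change of -0.20 (adjusted p = 0.532), whose sign turned without FLO replicate 5 and in the plasma-protein scaling. In all, 3 of the 6 terminal genes were called lower and none higher, with a median of -0.94 (-0.49 in the plasma-protein scaling, again with 3 called lower).

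**Figure D2:**
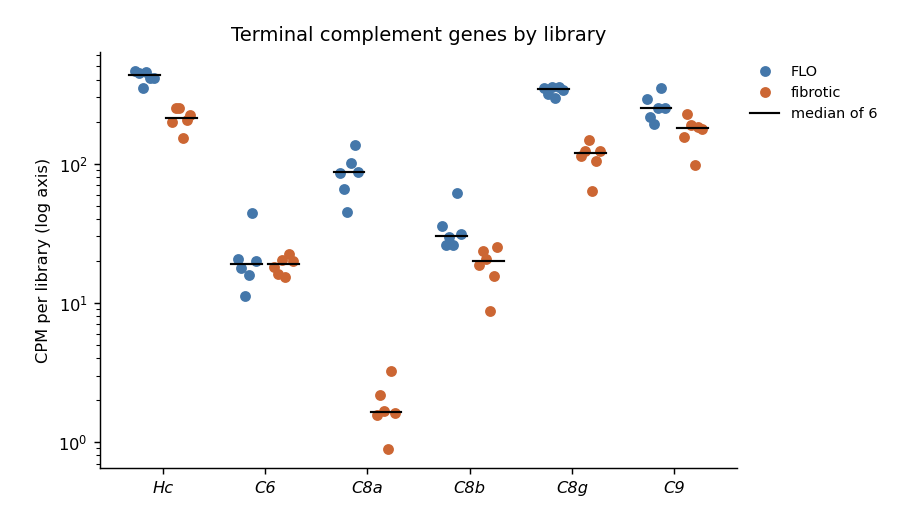
CPM of the 6 terminal pathway genes in each library on a log axis, FLO and fibrotic side by side, with the bar at the group median. C8a drops from a median of 86.6 to 1.65 CPM while C6 stays at 19.0 and 19.1 CPM.

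Since C8a and C8b lie next to each other, they were set side by side. In GENCODE M21 (GRCm38, the mm10 build that the submitters' processing notes name) C8b spans chr4:104766317-104804548 on the plus strand and C8a chr4:104815679-104876398 on the minus strand, 11.1 kb apart with no annotated gene between. The 250 bases before each RefSeq start (GRCm38.p6) are printed so that the upstream regions of these neighbours can be compared. Capitals mark matches, on either strand, to short core motifs named for liver and acute phase factors.
C8a, chr4:104876399-104876648, minus strand: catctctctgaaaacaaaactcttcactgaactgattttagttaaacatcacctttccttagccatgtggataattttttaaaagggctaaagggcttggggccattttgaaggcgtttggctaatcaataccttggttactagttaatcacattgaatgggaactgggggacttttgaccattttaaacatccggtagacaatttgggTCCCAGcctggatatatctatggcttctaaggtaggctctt
C8b, chr4:104766067-104766316, plus strand: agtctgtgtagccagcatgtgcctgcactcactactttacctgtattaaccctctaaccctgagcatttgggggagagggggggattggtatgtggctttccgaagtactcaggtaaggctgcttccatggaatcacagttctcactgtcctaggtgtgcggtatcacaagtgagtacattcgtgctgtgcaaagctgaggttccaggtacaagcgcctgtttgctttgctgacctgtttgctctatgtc

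The core of the interleukin-6 response element (CTGGGA, or TCCCAG on the other strand) starts 41 bases before the C8a start, and none of the motifs searched was in the C8b window. These letters are short and common. A member was counted if any of its listed starts held the motif, while the background counted each promoter singly. CTGGGA was in 27.0% of the 32851 RefSeq promoters of the same length and in 14 of the 30 members with a promoter used here (46.7%). TTGCNNAA, a C/EBP motif, was in 9.56% and 26.7%, the HNF4 core CAAAGT in 12.6% and 13.3%, and TATAAA in 12.4% and 6.67%. The C/EBP motif was in 3 of 14 members called lower and in 4 of 15 not called, and no test was made. A match is a run of letters and says nothing of binding.

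The chains of one complex did not move together. A ratio of partner genes within a library does not depend on library scaling. Exact permutation (two-sided, every assignment of 6 against 6) was run on 12 pairs, and its smallest p is 0.00216 (0.00371 after adjustment over the 12 pairs). Only the C8, fibrinogen and C1ra to C1s1 pairs are parts of 1 complex, and the others set related genes side by side. The members were chosen with earlier results of these data known, and the ratios use the same counts as the fold changes. Their p values are therefore no independent support for those fold changes. The log2 ratio of C8a to C8b went from a mean of 1.30 (SD 0.45, n = 6) in FLO to -3.29 (SD 0.57, n = 6) in fibrotic libraries, a difference of -4.58 (exact adjusted p = 0.00371). C8a to C8g differed by -3.87 (exact adjusted p = 0.00371) and C8b to C8g by 0.71 (exact adjusted p = 0.0162). Per kilobase of the longest transcript, C8g was the most abundant of the chains in both groups. The FLO medians were 23.9 CPM per kb for C8a, 13.5 for C8b and 299 for C8g, and the fibrotic medians 0.455, 8.85 and 103, so C8a went from above C8b to below it. Other pairs differed less. The log2 ratio of F9 to F10 differed by -0.23 (exact adjusted p = 0.0364), of Masp1 to Masp2 by 0.36 (exact adjusted p = 0.0614) and of Serpind1 to Serpinc1 by 0.12 (exact adjusted p = 0.13).

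**Figure D3:**
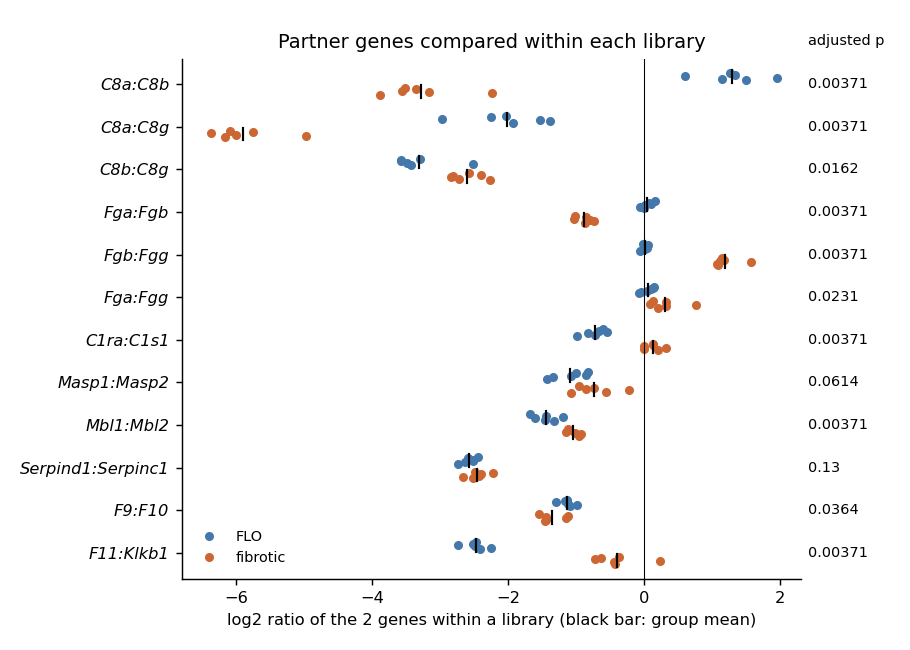
Log2 ratio of CPM of partner genes within each library, FLO and fibrotic (n = 6 each), with the group mean as a bar and the exact adjusted p over 12 pairs at the right. C8a to C8b and C8a to C8g show the largest shifts, and the Fgb to Fgg ratio moves from near 0 to 1.19.

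The chains of fibrinogen parted as well. Its alpha, beta and gamma chains, from Fga, Fgb and Fgg, are assembled in equal numbers, and the genes lie in a row on chromosome 3. Fgb had 1530, 1793 and 2025 CPM in FLO and 2445, 2966 and 4345 CPM in fibrotic libraries. All fibrotic libraries were above all FLO libraries, and Fgb rose by 0.82 (SE 0.14, adjusted p = 0.000185). Fga had 1611, 1858 and 2073 CPM in FLO and 1196, 1635 and 2483 CPM in fibrotic libraries, with wide overlap (-0.11, SE 0.15, adjusted p = 0.557). Fgg had 1476, 1773 and 2069 CPM in FLO and 1126, 1366 and 1558 CPM in fibrotic libraries, also with overlap, and just missed the adjusted p (-0.40, SE 0.12, adjusted p = 0.0101). The signs of Fga and Fgg, but not that of Fgb, turned in the plasma-protein scaling.

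Within a library the fibrinogen chains were close to equal in FLO. The mean log2 ratio was 0.05 (SD 0.08, n = 6) for Fga to Fgb and 0.00 (SD 0.04, n = 6) for Fgb to Fgg. In fibrotic libraries these were -0.89 (SD 0.11, n = 6) and 1.19 (SD 0.19, n = 6), differences of -0.93 and 1.19 with no overlap (exact adjusted p = 0.00371 each). Fga to Fgg differed by 0.26 (exact adjusted p = 0.0231). The first 2 shifts were larger than the spread within either group, while that of Fga to Fgg was close to the fibrotic SD of 0.25, with overlap. Without fibrotic replicate 4, the library with the highest Fga and Fgb, the differences were -0.95, 1.12 and 0.17. Per kilobase, Fgg led in FLO (1018 CPM per kb, against 718 for Fga and 471 for Fgb), and in fibrotic libraries Fgg (784) and Fgb (778) stood close together, with Fga at 632. These levels rest on the longest annotated transcripts (2587 bases for Fga, 3810 for Fgb and 1741 for Fgg), which need not be those expressed.

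**Figure D4:**
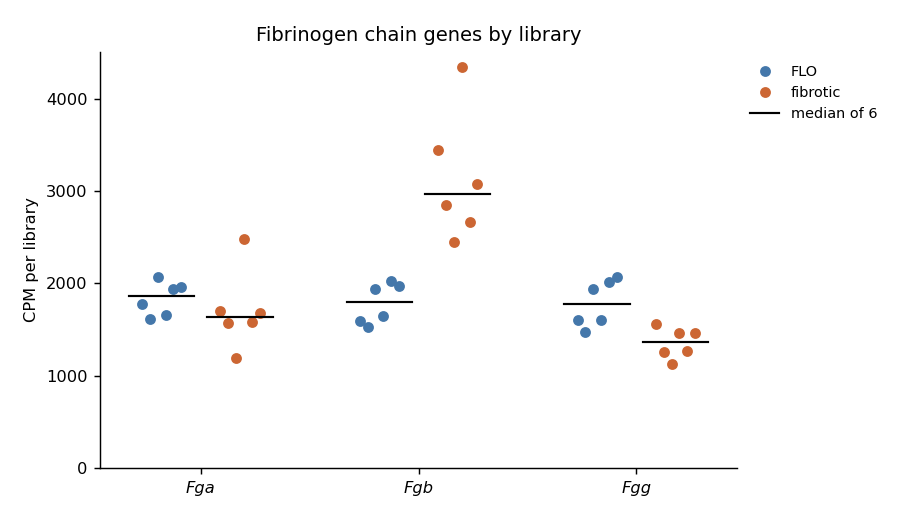
CPM of Fga, Fgb and Fgg in each library, FLO and fibrotic side by side, with the bar at the group median. Fgb is the only chain whose groups do not overlap, at 1530 to 2025 and 2445 to 4345 CPM.

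Fgg spans chr3:83007724-83015049 and Fga chr3:83026076-83033627, both on the plus strand, and Fgb chr3:83040141-83049863 on the minus strand, so that Fga and Fgb end towards each other 6.51 kb apart. The upstream 250 bases are printed because these neighbours are the chains that parted. Capitals mark the same motifs as above.
Fga, chr3:83025903-83026152, plus strand: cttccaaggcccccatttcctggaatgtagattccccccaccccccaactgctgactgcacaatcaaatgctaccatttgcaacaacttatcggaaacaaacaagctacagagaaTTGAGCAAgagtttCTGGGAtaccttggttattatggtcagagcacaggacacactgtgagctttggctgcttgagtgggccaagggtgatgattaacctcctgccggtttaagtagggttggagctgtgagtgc
Fgb, chr3:83049864-83050113, minus strand: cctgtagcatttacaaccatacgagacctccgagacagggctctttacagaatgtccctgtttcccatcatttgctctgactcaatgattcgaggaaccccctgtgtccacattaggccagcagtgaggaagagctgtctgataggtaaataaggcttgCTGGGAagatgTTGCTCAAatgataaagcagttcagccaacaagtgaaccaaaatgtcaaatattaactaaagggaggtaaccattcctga
Fgg, chr3:83007474-83007723, plus strand: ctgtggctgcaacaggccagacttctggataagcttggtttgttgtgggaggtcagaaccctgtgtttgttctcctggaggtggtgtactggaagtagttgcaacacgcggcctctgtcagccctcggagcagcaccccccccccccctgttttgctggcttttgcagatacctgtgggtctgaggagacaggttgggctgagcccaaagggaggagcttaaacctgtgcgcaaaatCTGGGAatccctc

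The Fga and Fgb windows each held a C/EBP motif and a CTGGGA core, although these genes did not move alike. The Fgg window held the CTGGGA core alone, starting 13 bases before the gene. RefSeq places the Fga start inside the GENCODE gene, so its window reaches past the GENCODE start.

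In the classical pathway 3 of 6 genes were called lower and none higher (median -0.42), and in the plasma-protein scaling 2 were lower and 1 higher, with the median turned to 0.03. Serping1, the C1 inhibitor, which also restrains contact activation, had 512, 562 and 645 CPM in FLO and 184, 202 and 219 CPM in fibrotic libraries. The groups were tight and far apart, and it fell by 1.48 (SE 0.08, adjusted p = 5.28e-09), the lowest adjusted p of all members. C4b, the C4 that is cleaved by C1s, had 1331, 1443 and 1511 CPM in FLO and 400, 717 and 925 CPM in fibrotic libraries. It fell by 1.03 (SE 0.16, adjusted p = 6.96e-05) without overlap. C4b has a near-identical copy, C4a, at medians of 14.3 and 25.6 CPM (0.65, adjusted p = 0.0376), and reads of the copies may have been split between them.

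C1s1 and C1ra, neighbours on chromosome 6, encode the proteases that sit as pairs in the C1 complex. C1s1 had 198, 280 and 289 CPM in FLO and 83.8, 157 and 210 CPM in fibrotic libraries. The groups overlapped through FLO replicate 3, its lowest FLO library, and C1s1 fell by 0.83 (SE 0.17, adjusted p = 0.001), and without that library its value was -0.90. C1ra was at medians of 163 and 167 CPM and had a log2 fold change of 0.01 (adjusted p = 0.973). The log2 ratio of C1ra to C1s1 moved from -0.73 (SD 0.16, n = 6) to 0.13 (SD 0.12, n = 6), a difference of 0.85 with no overlap (exact adjusted p = 0.00371). The copies C1rb and C1s2 were at medians of at most 3.25 CPM in either group. C2, the second substrate of C1s, had medians of 82.2 and 95.4 CPM (0.28, adjusted p = 0.103), and C4bp, the C4b-binding inhibitor, 529 and 569 CPM (-0.02, adjusted p = 0.929). C4bp was positive (0.12) without fibrotic replicate 4, its lowest library.

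Of the lectin pathway genes 1 of 4 was called lower (median -0.41), and none was in the plasma-protein scaling, where the median was 0.06. Masp2, the protease that cleaves C4 and C2 for the mannose-binding lectins, had 182, 191 and 223 CPM in FLO and 74.8, 132 and 142 CPM in fibrotic libraries, and fell by 0.69 (SE 0.13, adjusted p = 0.000465) without overlap. Tardbp overlaps it on the opposite strand. Masp1, the protease that activates Masp2, had medians of 95.8 and 71.2 CPM (-0.36, adjusted p = 0.00842, under the fold limit). Of the lectins themselves, Mbl2 did not overlap between groups (265 to 372 CPM in FLO, 164 to 263 CPM in fibrotic) but stayed under the fold limit (-0.46, adjusted p = 0.00594). Mbl1 was at 116 and 117 CPM (-0.07, adjusted p = 0.641), and the Mbl1 to Mbl2 ratio differed by 0.40 on the log2 scale (exact adjusted p = 0.00371).

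Of the 3 alternative pathway genes 1 was called lower (median 0.02, or 0.00 with RLE and -0.01 with upper quartile scaling), and in the plasma-protein scaling C3 was called higher and none lower, with a median of 0.48. C3, the point where all arms meet and the most abundant complement member, had 5000, 5880 and 7367 CPM in FLO and 5988, 6263 and 8275 CPM in fibrotic libraries (0.17, SE 0.12, adjusted p = 0.268). Cfb, factor B, the protease of the alternative convertase, had medians of 1072 and 1131 CPM (0.02, adjusted p = 0.925). Cfb and C2 lie 85 bases apart, and a readthrough gene spans both. Cfi, factor I, which inactivates C3b and C4b, had 471, 509 and 564 CPM in FLO and 239, 315 and 339 CPM in fibrotic libraries. It fell by 0.74 (SE 0.09, adjusted p = 9.08e-06) with no overlap. The members include 9 that restrain complement, clotting or, in the case of Serpinf2 and Cpb2, fibrinolysis. Of these 9, 4 were called lower (Serping1, Cfi, Proc and Pros1) and none higher. Only Serping1 among them was called in the plasma-protein scaling.

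Among the 4 contact genes, which start the intrinsic pathway and release bradykinin, 3 were called lower (median -0.83, and -0.35 with Klkb1 alone called in the plasma-protein scaling). Klkb1, plasma prekallikrein, had 87.4, 109 and 121 CPM in FLO and 7.67, 25.6 and 42.3 CPM in fibrotic libraries. It fell by 2.02 (SE 0.30, adjusted p = 8.7e-05), after C8a the largest change among the members, and it overlaps Gm45753 on the same strand. F11, factor XI, a paralogue that lies 4.66 kb away on chromosome 8, had medians of 18.6 and 19.4 CPM (-0.03, adjusted p = 0.909). The log2 ratio of F11 to Klkb1 differed by 2.08 between groups without overlap (exact adjusted p = 0.00371). Per kilobase of the longest annotated transcript, Klkb1 was above F11 in FLO (20.8 against 8.32 CPM per kb) and below it in fibrotic libraries (4.88 against 8.65). In CPM the Klkb1 median stayed above that of F11 in both groups.

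F12, factor XII, had 557, 570 and 581 CPM in FLO and 284, 350 and 394 CPM in fibrotic libraries, and fell by 0.73 (SE 0.10, adjusted p = 1.83e-05). Kng1, kininogen, the source of bradykinin, had 1355, 1376 and 1616 CPM in FLO and 673, 747 and 872 CPM in fibrotic libraries, and fell by 0.93 (SE 0.09, adjusted p = 1.37e-06). Neither overlapped between groups. The near-identical copy Kng2 was lower as well (-0.83, adjusted p = 2.44e-06), and reads may have been split between the copies.

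All 4 vitamin K-dependent clotting factors were called lower without overlap, although each change was under 1 on the log2 scale (median -0.62), and in the plasma-protein scaling none was called (median -0.15). F2, prothrombin, had 1742, 1872 and 1978 CPM in FLO and 856, 1191 and 1317 CPM in fibrotic libraries (-0.68, SE 0.11, adjusted p = 9.7e-05). F9, factor IX, had 136, 147 and 165 CPM in FLO and 77.4, 82.7 and 107 CPM in fibrotic libraries (-0.79, SE 0.09, adjusted p = 2.96e-06). F7, which with tissue factor starts the extrinsic pathway, had 50.2, 57.3 and 74.6 CPM in FLO and 25.8, 43.5 and 48.1 CPM in fibrotic libraries (-0.56, SE 0.14, adjusted p = 0.00308). F10, where the pathways join and which lies 1.50 kb from F7, had 306, 322 and 361 CPM in FLO and 172, 232 and 243 CPM in fibrotic libraries (-0.56, SE 0.09, adjusted p = 0.000111). F7 and F10 are just past the fold limit, and without fibrotic replicate 4 both were under it (-0.45 and -0.49). F7 was under it without FLO replicate 3 too (-0.49).

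The anticoagulant branch included carboxylated proteins of the same kind. Proc, protein C, had 319, 344 and 372 CPM in FLO and 101, 200 and 230 CPM in fibrotic libraries, and fell by 0.87 (SE 0.15, adjusted p = 0.000173). Pros1, its cofactor protein S, had 47.7, 53.3 and 55.8 CPM in FLO and 23.0, 27.0 and 30.0 CPM in fibrotic libraries, and fell by 0.97 (SE 0.08, adjusted p = 2.26e-07). With these, all 6 carboxylated members were called lower without overlap (median -0.73). Of the other 33 members 13 were called lower, and of all tested genes 14.0%. The fall was not particular to carboxylated members. Of the 10 contact, vitamin K-dependent and other clotting factor genes, 9 were called lower without overlap, all but F11. None of the 6 carboxylated members was called in the plasma-protein scaling. Of 6 genes of the vitamin K cycle and of factor secretion none was called in the main scaling (median 0.05). In the plasma-protein scaling 3 were called higher (median 0.53, against 0.52 over all tested genes). Ggcx, the carboxylase, was at -0.01 in the main scaling (adjusted p = 0.934). Serpinc1, antithrombin, the abundant thrombin inhibitor, had 2184, 2239 and 2658 CPM in FLO and 1207, 1920 and 2022 CPM in fibrotic libraries (-0.36, SE 0.13, adjusted p = 0.0235). It did not overlap, yet was not called. Serpind1, heparin cofactor II, had medians of 376 and 334 CPM (-0.24, adjusted p = 0.161), and overlaps Pi4ka on the opposite strand.

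Both remaining clotting factors fell, F5 in the plasma-protein scaling too. F5, factor V, the cofactor of factor Xa, had 276, 324 and 381 CPM in FLO and 79.6, 105 and 134 CPM in fibrotic libraries, and fell by 1.61 (SE 0.14, adjusted p = 2.77e-07). F13b, the carrier subunit of the fibrin-crosslinking factor XIII, had 141, 152 and 173 CPM in FLO and 70.9, 82.0 and 117 CPM in fibrotic libraries, and fell by 0.80 (SE 0.12, adjusted p = 3.61e-05). No overlap was seen for either.

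None of the 3 fibrinolysis genes was called (median -0.34, turned to 0.13 in the plasma-protein scaling). Plg, plasminogen, had 1405, 1502 and 1711 CPM in FLO and 881, 1128 and 1341 CPM in fibrotic libraries, which did not overlap, and missed the fold limit by little (-0.49, SE 0.12, adjusted p = 0.00238). It overlaps Slc22a3 on the opposite strand. Serpinf2, the plasmin inhibitor, had medians of 452 and 394 CPM (-0.34, adjusted p = 0.0325). Cpb2, a carboxypeptidase that protects fibrin from plasmin, had medians of 269 and 255 CPM (-0.05, SE 0.08, adjusted p = 0.645).

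Further genes of the same systems, outside the 39, were taken from lists by source and role. Of 11 other liver-made complement genes, 7 were called lower and none higher (median -0.97), and 6 and 3 in the plasma-protein scaling (median -0.52). Cpn1, the carboxypeptidase that inactivates anaphylatoxins, fell by 1.82. Among 12 tested complement genes of other cells, 6 were called higher and none lower (median 0.59, or 1.11 with 9 called higher in the plasma-protein scaling). These were the macrophage genes C1qa, C1qb, C1qc, Cfp, Fcna and Vsig4, by 0.54 to 0.74. The call was lost for C1qc without fibrotic replicate 1 or FLO replicate 1, for Cfp without fibrotic replicate 1 or 4 and for Fcna without FLO replicate 6. The 6 genes were higher in libraries whose Kupffer marker sums were also higher, and Vsig4 is itself 1 of the 8 markers. The part of that difference was not tested. Of 4 membrane regulators, Cd55, Cd59a and Cr1l were called lower, with values of -0.73 to -0.62, and none was in the plasma-protein scaling.

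**Figure D5:**
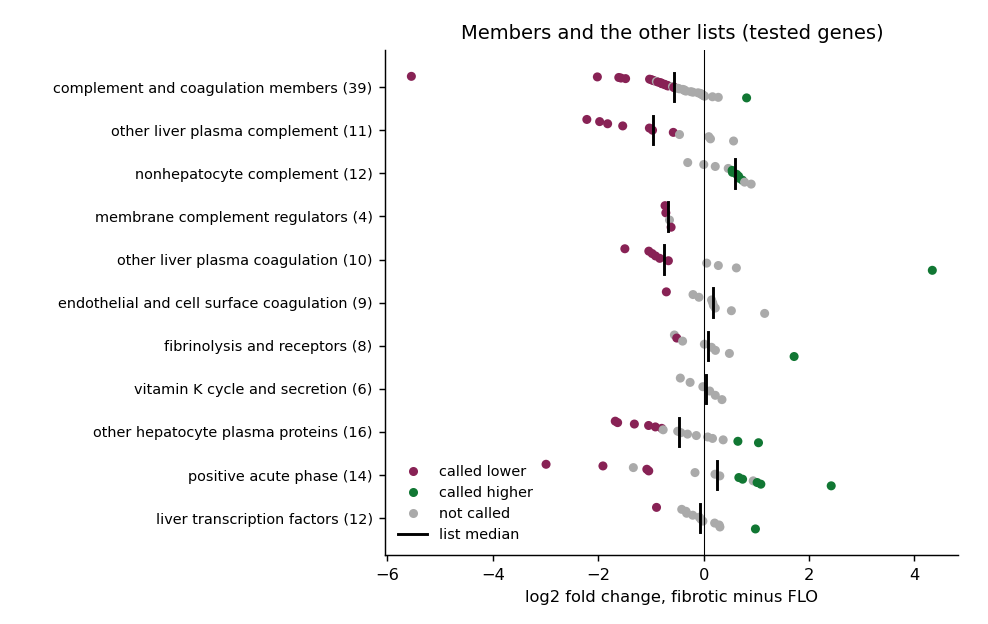
Log2 fold change (fibrotic minus FLO) of the tested genes of the members and of each other list, 1 point per gene, with the list's median as a bar. Liver-made complement and clotting lists lie mostly below 0, with medians of -0.97 and -0.75, and complement genes of other cells mostly above it, with a median of 0.59.

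Of 10 tested other liver-made clotting genes, 6 were called lower and 1 higher (median -0.75), and 3 and 4 in the plasma-protein scaling (median -0.28). Pzp, an alpha-macroglobulin, changed by -1.49, Habp2, a factor VII-activating protease, by -1.04, and Hgfac, a factor XII-like protease, by -0.98. Serpina5, the protein C inhibitor, was at 0.0856 to 0.508 CPM in FLO and 2.04 to 10.9 CPM in fibrotic libraries, and rose by 4.34 (SE 0.53, adjusted p = 9.97e-06) from a level under 1 CPM. In 9 tested endothelial and cell-surface genes, F8, factor VIII, made by endothelial cells, was the only one called (-0.71, adjusted p = 4.68e-05), in libraries whose endothelial marker sums were lower. In the plasma-protein scaling F8 was not called (-0.21), and 5 genes of this list were called higher (median 0.68, against 0.17 in the main scaling). The median of all tested genes in the plasma-protein scaling was 0.52. Tissue factor (F3, 0.19, adjusted p = 0.252) and Vwf (-0.09, adjusted p = 0.504) were not called. Among 8 tested fibrinolysis activators and receptors, Plat was called higher (1.72, adjusted p = 0.00783) and S100a10 lower (-0.51, adjusted p = 0.00182). The call of Plat was lost without fibrotic replicate 1, 4 or 5 or FLO replicate 1, 2, 4, 5 or 6 (1.39 to 1.82, the lowest without fibrotic replicate 4). With no low-count filter, with limma-voom or with the replicate block the call of Plat was lost too (adjusted p = 0.0279, 0.0368 and 0.0677). That of S100a10 was lost without fibrotic replicate 2 or 4 or FLO replicate 5 or 6 (-0.48 to -0.44) and in the plasma-protein scaling (-0.02). In that scaling 2 genes of this list were called higher and none lower. Their list's median was 0.61 (0.08 in the main scaling), against 0.52 over all tested genes.

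Other secreted products of the hepatocyte were also mostly lower, although some rose. Of 16 other plasma protein genes, 11 had a negative log2 fold change, and 6 were called lower and 2 higher. Their median was -0.46, against -0.56 for the members. In the plasma-protein scaling, built on these genes, 4 were called lower and 4 higher, with a median of 0.02. Apoa1, of high-density lipoprotein, changed by -1.68, Fetub by -1.63 and Itih1 by -1.31, while Ahsg rose by 1.04 and Apoc3 by 0.65. Of 14 positive acute phase genes, 5 were called higher and 4 lower (median 0.26), beside 15.9% and 14.0% of all tested genes. In the plasma-protein scaling 7 and 3 were called (median 0.73, against 0.52 over all tested genes). Leaving out any 1 library gave 6 to 8 called genes in place of 9, and 4 were called higher with RLE and 3 with upper quartile scaling. Apcs, serum amyloid P, rose by 2.42, Orm2 by 1.09 and Hpx by 1.02, while Crp changed by -2.99, Saa2 by -1.91 and Il1rn by -1.08. The call of Orm2 was lost without fibrotic replicate 4 or FLO replicate 2 and with no low-count filter. That of Il1rn was lost in the plasma-protein scaling, with limma-voom and without fibrotic replicate 1, 2, 3 or 6 or FLO replicate 1, 4, 5 or 6. Saa3 (0.74) and Serpina3n (0.67) were also called higher, but lost the call with upper quartile scaling and in most fits that left out 1 library. Saa3 lost it with the replicate block too, and Serpina3n with RLE and with no low-count filter. Of 12 liver transcription factors, Cebpb rose by 0.98, Onecut1 fell by 0.89 and Hnf4a was not called (-0.08, adjusted p = 0.536). Onecut1 was not called without FLO replicate 4 (-0.73) or in the plasma-protein scaling (-0.41). In that scaling 4 of the 12 were called higher and none lower. Their list's median was 0.40 (-0.07 in the main scaling), below the 0.52 of all tested genes.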

How the data were processed

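Whole-liver poly(A) RNA of 12 mice was analysed, 1 library per mouse. The authors deposited raw whole-number counts per Ensembl gene, not normalised. The submitters' processing notes name mm10, STAR 2.7.3a and bcl2fastq, and neither the mouse annotation release nor the strand setting of the counting is given in the sources used here. Symbols matched 51745 of 56205 identifiers. Group and replicate were read from sample titles. Totals ranged from 17815568 to 24814263 counts, and spread between libraries includes counting error.

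Counts were tested in R 4.3.3 with edgeR 4.0.16 (quasi-likelihood, robust, TMM, filterByExpr, Benjamini-Hochberg over 13416 genes). The threshold was an adjusted p of 0.01 and an absolute log2 fold change over 0.5, as in the study's methods. The SE is the absolute log2 fold change divided by the square root of F. Within-library ratios used log2 CPM with a prior count of 2 and an exact permutation test, two-sided, coded directly in Python 3.11.15. Libraries of 1 group differed by more than sampling noise (smallest chi-square per degree of freedom 10.3 over 30 pairs). The fit was tested on simulated data. Gene positions and lengths came from GENCODE M21, promoters from RefSeq GRCm38.p6.

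The members and lists were chosen with earlier results of these data known, so no list was tested as a set. All 39 members were described, with the 3 highest and 3 lowest called genes of each other list, except that called members of a list are also given as a range. Ggcx, F3, Vwf, Hnf4a, Saa3 and Serpina3n were named after their values were seen. Alternatives were other normalisations (RLE, upper quartile, TMM without the members and the 50 genes with most counts, scaling to other hepatocyte plasma protein genes), no filter, at least 10 counts in every library, DESeq2 1.42.0, limma-voom (limma 3.58.1), a replicate block, a non-robust fit, a prior count of 0.5, other thresholds and leaving out each library. Proc is on a chromosome whose sequence was not used here. Some genes of the other lists are not reported here.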

Additional observations from a re-analysis of the deposited data

Results flagged for a closer look

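In each group of 6, the gap in log2 CPM of the most extreme library to its neighbour was divided by the group's range and compared with Dixon's limit of 0.625. Of 78 ratios 10 passed, where chance gives about 1 in 20, or 3.9, if the ratios are taken as independent. Fibrotic replicate 4 was the lowest library for 7 of them: Proc (ratio 0.794, 101 CPM against 194 in the next library), Cfb (0.74, 640 against 1080 CPM), Serpinc1 (0.735, 1207 against 1764 CPM), Cfi (0.698), C4bp (0.678), F10 (0.664) and F2 (0.656). Its values for the members lay a median of 0.45 below its group's mean on the log2 scale, and it was the lowest for 10 of the 16 other hepatocyte plasma protein genes. It was nonetheless the highest of its group for Fga and Fgb. C1s1 was lowest in FLO replicate 3 (ratio 0.778, 198 against 266 CPM), the library with Xist. C8b was highest in FLO replicate 5 (0.634, 61.7 against 35.8 CPM), and Cpb2 in fibrotic replicate 1 (0.644, 306 against 264 CPM).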

How the results depend on the processing

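Of the 20 called members, 8 kept their call in all 22 refits. Leaving out 1 library at a time gave 18 to 23 called members (17 to 22 lower, 1 higher) and medians of -0.61 to -0.46. Scaled to the other hepatocyte plasma protein genes, 10 members (3 higher, 7 lower) and 6462 of all genes were called and the members' median was -0.10. In that scaling the sign turned, with no call, for Mbl1 (0.40), Masp1 (0.11), C4bp (0.43), C6 (0.27), F11 (0.41), Fga (0.42), Fgg (0.10), Serpinc1 (0.10), Serpind1 (0.22), Serpinf2 (0.13) and Cpb2 (0.44). With no fold limit and an adjusted p of 0.05, 6994 of all genes were called. With an absolute log2 fold change over 1, 6 members (0 higher, 6 lower), 1697 of all genes and 21 genes of the other lists were. C1ra and Cfb, both near 0, turned sign with RLE (-0.0115 and -0.0011), upper quartile (-0.0204 and -0.0078) and limma-voom (-0.0175 and -0.0119), and C1ra with DESeq2 (-0.0097). Leaving out 1 library, signs turned within ranges of -0.0762 to 0.11 for C1ra, -0.0412 to 0.14 for Cfb, -0.0899 to 0.12 for C4bp, -0.12 to 0.0188 for Mbl1, -0.16 to 0.12 for F11 and -0.34 to 0.12 for C6. C8b, C9, Plg and Mbl2 were called lower in some settings. Ratio differences crossed an adjusted p of 0.05 when 1 library was left out for F9:F10 (-0.28 to -0.19), Fga:Fgg (0.17 to 0.30), Masp1:Masp2 (0.25 to 0.42) and Serpind1:Serpinc1 (0.0746 to 0.16). The causes were not tested.

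Replicate numbers did not pair the libraries. Correlations of same-numbered libraries were -0.16 to 0.10, and none matched best with its own number. With the replicate block 21 members were called (20 lower, 1 higher), the sign of C1ra (-0.0172) and Cfb (-0.0113) turned, and Plg was called. Low counts limit C8a in fibrotic libraries, where it had 19 to 64 counts.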
